A study of Homo sapiens with 16 samples.

Results

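The genes described here are 36 of the 60658 genes measured, chosen as the transcripts that the ATF6 and XBP1 arms of the unfolded protein response are known to drive, together with the sensors themselves. The rule that selects their rows uses gene names only. Of the 36, 35 were found by symbol, and SELENOK was found by its Ensembl ID under the older symbol SELK. They fell into 5 roles, namely sensors and their factors, the HSP70 and HSP90 chaperone system, lectin chaperones with disulfide isomerases and an oxidase, ER-associated degradation, and a last set of secreted factors, translocon and COPII coat.

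RNA was sequenced from MDA-MB-231 cells, a line derived from a triple-negative breast cancer, as wild type (WT) and as BMAL1 -/- (KO), where BMAL1 is the clock transcription factor encoded by ARNTL. Each genotype was left as control or given cisplatin, doxorubicin or tunicamycin, which made 8 groups of 2 samples, 16 in all, that the labels call biological replicates. Cisplatin crosslinks DNA, doxorubicin poisons topoisomerase II and intercalates, and tunicamycin blocks the first step of N-glycan synthesis, so that glycoproteins misfold in the endoplasmic reticulum (ER). Neither doses nor times appear in the sources at hand, and the labels name no clone, so a difference between KO and WT cannot be told apart from a difference between the cultures that were derived. The extraction protocol speaks of fibroblasts, while every other label names MDA-MB-231.

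When unfolded proteins build up in the ER, the chaperone BiP (HSPA5) leaves the lumenal sides of 3 membrane sensors. ATF6 then moves to the Golgi, where proteases free its cytosolic part as a transcription factor. IRE1 (ERN1) splices XBP1 mRNA into the form that codes for an active factor, and PERK (EIF2AK3) phosphorylates eIF2 alpha, which lowers translation and raises that of ATF4. ATF6 and spliced XBP1 act on ER stress response elements in promoters of chaperone and degradation genes, with NF-Y at the CCAAT box.

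The promoters of 7 members are shown because they hold, or lack, exact copies of these elements while the mRNAs responded to tunicamycin over a wide range. They come from the RefSeq promoter windows on GRCh38.p14, which run from 250 bases before to 50 bases after each annotated start. Only bases before the start and outside the annotated gene were printed, 5′ to 3′ on the gene's strand. Capitals mark the fixed letters of an exact match, on either strand, to the ER stress response element (ERSE, CCAAT, then 9 bases of any kind, then CCACG), to ERSE-II (ATTGG, then 1 base of any kind, then CCACG) or to the UPR element (UPRE, TGACGTGG). The stretches lie at chr9:125241344-125241543 (minus strand) for HSPA5, chr22:28800598-28800797 (minus) for XBP1, chr16:56931892-56932047 (plus) for HERPUD1, chr22:21642061-21642260 (plus) for SDF2L1, chr11:119057206-119057405 (minus) for HYOU1, chr14:81533862-81534061 (minus) for SEL1L and chr1:184754914-184755108 (minus) for EDEM3.
HSPA5: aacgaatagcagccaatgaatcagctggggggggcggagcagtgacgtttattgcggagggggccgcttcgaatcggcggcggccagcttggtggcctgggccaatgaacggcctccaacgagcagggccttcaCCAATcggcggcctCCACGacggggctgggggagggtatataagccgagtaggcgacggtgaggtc
XBP1: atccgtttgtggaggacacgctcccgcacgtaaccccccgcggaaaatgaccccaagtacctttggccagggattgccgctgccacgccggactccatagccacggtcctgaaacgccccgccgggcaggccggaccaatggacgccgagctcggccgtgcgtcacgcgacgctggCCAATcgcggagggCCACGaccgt
HERPUD1: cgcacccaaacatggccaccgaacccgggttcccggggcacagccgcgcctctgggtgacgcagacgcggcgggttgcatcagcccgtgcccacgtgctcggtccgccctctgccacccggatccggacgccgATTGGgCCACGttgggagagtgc
SDF2L1: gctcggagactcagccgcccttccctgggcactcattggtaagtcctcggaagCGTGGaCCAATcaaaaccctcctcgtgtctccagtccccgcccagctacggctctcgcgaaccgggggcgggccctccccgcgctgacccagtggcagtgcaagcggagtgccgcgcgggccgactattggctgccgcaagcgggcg
HYOU1: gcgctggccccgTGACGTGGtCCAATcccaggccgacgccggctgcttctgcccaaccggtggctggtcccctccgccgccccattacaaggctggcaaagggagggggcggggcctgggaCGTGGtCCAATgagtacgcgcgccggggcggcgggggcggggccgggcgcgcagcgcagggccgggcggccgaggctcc
SEL1L: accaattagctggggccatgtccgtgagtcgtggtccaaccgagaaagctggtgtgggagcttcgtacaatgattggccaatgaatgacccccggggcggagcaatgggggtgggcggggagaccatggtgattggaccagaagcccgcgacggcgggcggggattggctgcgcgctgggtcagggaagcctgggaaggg
EDEM3: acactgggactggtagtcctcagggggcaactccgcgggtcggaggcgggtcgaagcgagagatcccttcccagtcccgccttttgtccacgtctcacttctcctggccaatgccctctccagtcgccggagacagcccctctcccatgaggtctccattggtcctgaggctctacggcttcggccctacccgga

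HSPA5 and XBP1 each hold 1 ERSE in the printed stretch, which ends 48 and 34 bases before the start. HERPUD1 and SDF2L1 each hold 1 ERSE-II. HYOU1 holds 2 ERSE-II copies on the opposite strand, and its UPRE overlaps the one farther from the start. SEL1L and EDEM3 hold no exact match, which says only that these letters are not in the window. Over all 27305 genes with a promoter window (35116 windows), an ERSE was present in 0.0916%, an ERSE-II in 0.0696% and a UPRE in 0.927%. Windows were found for 32 of the 36 members, and DERL1, DERL3, PDIA3 and SEC24D were not matched. Of the 32, 8 held an ERSE (25.0%; HSPA5, HSP90B1, CALR, CANX, PDIA6, ERO1B, XBP1 and CRELD2), 3 an ERSE-II (9.38%) and 2 a UPRE (6.25%; HYOU1 and DNAJC10). The members were chosen as known targets of the factors that act on such elements, so their higher shares are no independent result. A match is a description of letters and no evidence of binding.

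For each treatment the deposited data give 1 expression value per group, in FPKM, a fragment count scaled for transcript length and library depth, made from both replicates, so no spread between replicates can be shown. Each of the 4 tables compares KO with WT cells under 1 treatment and covers 11856 to 14253 tested genes. A gene is called where the authors' q is at most 0.05. The 5th percentile of values above 0, a rough guide to relative depth, was 1.35 to 2.74 times lower in the other 7 groups than in WT control, with the largest ratio for WT under doxorubicin. ARNTL was lower in KO cells in each table, at 0.889 against 5.67 FPKM in control, but was not called under cisplatin (0.941 against 1.26; q = 0.467 in the authors' deposited table) or tunicamycin (2.24 against 3.25; q = 0.0810 there). Summed over 7 markers of mesenchymal breast lines the groups reached 4793 to 8413 FPKM, against 0.277 to 9.72 over 6 fibroblast markers, of which 5 (COL1A2, COL3A1, DCN, LUM and PDGFRA) stayed below 1 in every group. Most of the mesenchymal sum was VIM, at 2883 to 6640 FPKM, while SPARC stood at only 0.949 to 16.0. The 7 also include 2 epithelial keratins, KRT8 at 402 to 739 FPKM and KRT18 at 85.0 to 775. The sum is thus not of mesenchymal genes alone, and these keratins are not in the luminal list. The sum was 2.71 to 6.96 over 6 luminal markers and 0.511 to 2.03 over 4 leukocyte markers. Of the luminal markers ESR1, PGR, FOXA1 and CDH1 were below 1 in every group, while EPCAM reached 6.33 and GATA3 5.48.

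Tunicamycin gave the highest level of most members. In both genotypes 30 of the 36 were highest under tunicamycin among the 4 treatments. The share of all genes that were highest there was not counted, so this number has no background. The members' share of all summed FPKM was 0.574% in WT and 0.681% in KO control cells, and 2.37% and 2.74% under tunicamycin. On the log2(FPKM + 1) scale, 26 of 35 tested members were at least 1.5-fold higher in tunicamycin than in control in WT cells, where 9.05% of 12749 genes were. In KO cells 32 of 35 were, against 6.97% of genes. Among the 16 tested members without exon overlap with another gene the counts were 12 in WT and 15 in KO. None of the 35 was at least 1.5-fold lower, against 11% of genes in WT and 8.13% in KO. The median log2 value of the members was 1.19 in WT and 1.38 in KO, and that of all tested genes was -0.08 and -0.07. Tunicamycin and control values come from tables normalized separately, and each drug is set against the same control groups, so these ratios carry no test and are descriptions.

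**Figure D1:**
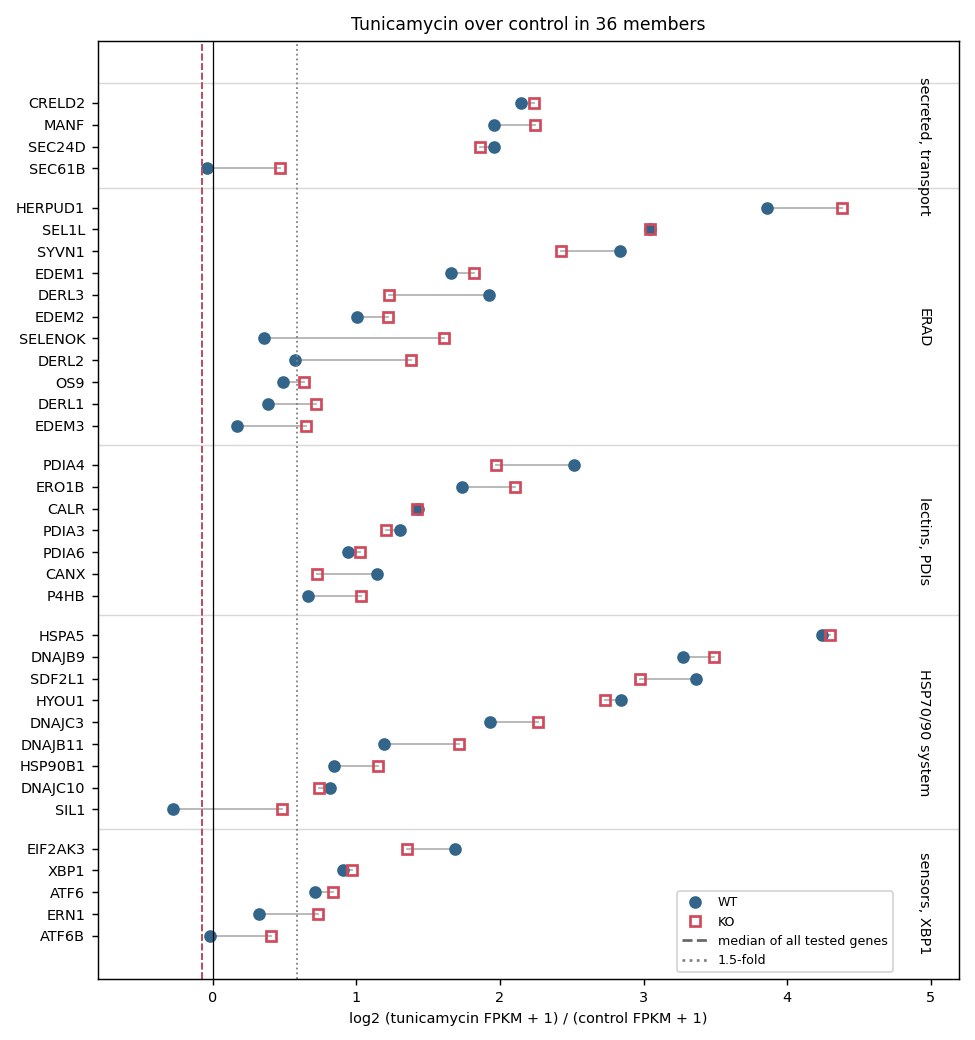
Log2 of (tunicamycin FPKM + 1) over (control FPKM + 1) for the 36 members by role, with WT as filled circles and KO as open squares. Dashed lines are the medians of all tested genes (-0.08 and -0.07), and nearly all members lie to their right, HSPA5 and HERPUD1 farthest.

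Among the sensors and their factors, the 3 sensor mRNAs never passed 20.5 FPKM, and XBP1 was the most abundant in control. EIF2AK3 (PERK) stood at 2.998 FPKM in WT and 3.61 in KO control cells, at 1.89 and 2.20 under cisplatin, at 0.206 and 0.424 under doxorubicin, and at 11.9 and 10.8 under tunicamycin. ERN1 (IRE1) stood at 2.504 and 2.07 in control, 4.52 and 4.33 under cisplatin, 1.59 and 0.927 under doxorubicin, and 3.39 and 4.09 under tunicamycin, so that it alone of this role was highest under cisplatin. ATF6 stood at 11.7 and 11.0 in control, 5.41 and 3.57 under cisplatin, 7.02 and 6.46 under doxorubicin, and 19.9 and 20.5 under tunicamycin. EIF2AK3 thus had the largest tunicamycin over control value of the 3 sensors, with a log2 value of 1.69 in WT and 1.35 in KO, against 0.71 and 0.84 for ATF6 and 0.32 and 0.73 for ERN1.

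XBP1 was 60.6 FPKM in WT and 70.0 in KO control cells, 43.1 and 56.3 under cisplatin, 4.12 and 3.91 under doxorubicin, and 115 and 138 under tunicamycin. Its tunicamycin over control log2 value was 0.91 in WT and 0.97 in KO. The FPKM is for the whole gene, so the spliced and unspliced forms were not separated. ATF6B, a paralog of ATF6, was 18.2 and 23.4 in control, 12.8 and 11.8 under cisplatin, 32.2 and 49.98 under doxorubicin, and 18.0 and 31.3 under tunicamycin. It was highest under doxorubicin in both genotypes, and its tunicamycin over control log2 value was -0.02 in WT and 0.41 in KO. The exons of ATF6B overlap those of TNXB on the same strand, so reads of TNXB may be counted in it.

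In the HSP70 and HSP90 system 8 of 9 members were at least 1.5-fold higher in tunicamycin in each genotype, with SIL1 as the exception, and the median log2 value was 1.93 in WT and 2.26 in KO. HSPA5, the ER's HSP70 and the sensors' own repressor, was 311 FPKM in WT and 358 in KO control cells, 139 and 117 under cisplatin, 159.8 and 135 under doxorubicin, and 5887 and 7050.1 under tunicamycin. Its level ranked 320th and 276th among genes in control and 3rd and 2nd under tunicamycin, when it made up 0.911% and 0.993% of summed FPKM. The tunicamycin over control ratio of (FPKM + 1) was 18.9 in WT and 19.6 in KO, the 11th and 4th highest of 12749 genes.

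HYOU1, a large HSP70 relative that acts as an exchange factor for BiP, was 102 and 165 FPKM in control, 81.6 and 74.4 under cisplatin, 184 and 277 under doxorubicin, and 735 and 1102 under tunicamycin. SDF2L1, a partner of the J protein DNAJB11, was 43.3 and 92.7 in control, 49.1 and 63.7 under cisplatin, 17.5 and 34.4 under doxorubicin, and 455 and 735 under tunicamycin. The order was the same in every treatment for SDF2L1, with KO above WT, while for HYOU1 KO was below WT under cisplatin. DNAJB9 (ERdj4), a J protein that also represses IRE1, was 5.49 and 5.33 in control, 8.43 and 7.89 under cisplatin, 2.00 and 1.55 under doxorubicin, and 61.7 and 70.0 under tunicamycin. Its tunicamycin over control log2 value of 3.27 in WT and 3.49 in KO ranked 25th and 11th of 12749 genes, from a low control level.

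Other J proteins responded less. DNAJB11 was 143 FPKM in WT and 104 in KO control cells, 96.0 and 99.3 under cisplatin, 100.2 and 135 under doxorubicin, and 327 and 343 under tunicamycin. DNAJC3 (p58IPK), a BiP co-chaperone also known as an inhibitor of eIF2 alpha kinases, was 13.3 and 25.6, then 6.96 and 13.2, 7.75 and 11.8, and 53.5 and 127 in the same order of treatments. DNAJC10 (ERdj5), a reductase that helps degradation, was 29.4 and 46.1 in control, 20.6 and 31.5 under cisplatin, 41.2 and 63.9 under doxorubicin, and 52.5 and 77.5 under tunicamycin. The tunicamycin over control log2 value was 1.93 in WT and 2.26 in KO for DNAJC3, and 0.82 and 0.74 for DNAJC10.

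HSP90B1 (GRP94), the ER's HSP90, was 261 FPKM in WT and 204 in KO control cells, 156 and 113 under cisplatin, 362 and 375 under doxorubicin, and 469 and 453 under tunicamycin. Although its window holds 2 ERSE copies, its tunicamycin over control log2 value was 0.84 in WT and 1.15 in KO, far below that of HSPA5. SIL1, an exchange factor for BiP, was 87.2 and 69.6 in control, 16.9 and 18.4 under cisplatin, 39.1 and 61.3 under doxorubicin, and 71.8 and 97.4 under tunicamycin. It was the only member of this role below its control level under tunicamycin in WT cells, with a log2 value of -0.28, and 0.48 in KO cells. The exons of SIL1 overlap those of MATR3 and SNHG4 on the other strand. Those of DNAJB9 overlap PNPLA8 and THAP5, and those of HSP90B1 overlap C12orf73 and TTC41P, also on the other strand. Without a stated use of strand, the reads of such overlapping genes cannot be told apart.

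**Figure D2:**
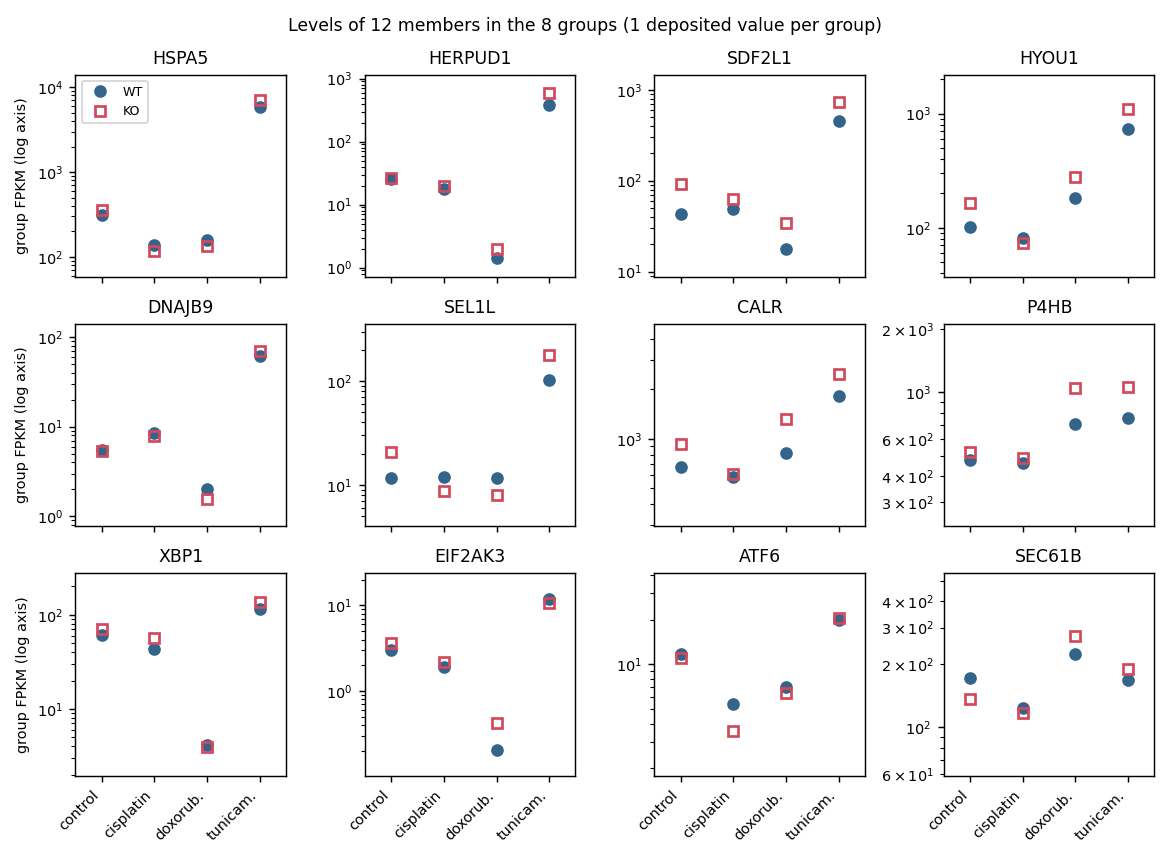
Group FPKM (log axis, 1 value per group) of 12 members in control, cisplatin, doxorubicin and tunicamycin, with WT as filled circles and KO as open squares. HSPA5 reaches 5887 and 7050.1 FPKM under tunicamycin, while XBP1 and HERPUD1 drop below 5 FPKM under doxorubicin and SEC61B stays between 117 and 272 throughout.

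All 7 lectin chaperones, disulfide isomerases and the oxidase were at least 1.5-fold higher in tunicamycin in both genotypes. Apart from ERO1B, their mRNAs stood at 70.2 FPKM (PDIA4 in WT) or more in control cells. CALR (calreticulin), a soluble lectin chaperone of glycoproteins, was 674 FPKM in WT and 927 in KO control cells, 589.6 and 609 under cisplatin, 817 and 1318 under doxorubicin, and 1821 and 2485 under tunicamycin. CANX (calnexin), its membrane-bound counterpart, was 528 and 828 in control, 695 and 608 under cisplatin, 1189 and 1353 under doxorubicin, and 1166 and 1369 under tunicamycin. In both genotypes the CANX values under doxorubicin and tunicamycin lay close together and above the other treatments.

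PDIA3 (ERp57), the isomerase that works with both lectins, was 174 FPKM in WT and 273 in KO control cells, 198.7 and 241 under cisplatin, 317 and 548 under doxorubicin, and 431 and 632 under tunicamycin. PDIA4 (ERp72) was 70.2 and 137 in control, 46.8 and 70.5 under cisplatin, 99.7 and 204 under doxorubicin, and 405 and 541 under tunicamycin. PDIA6 was 198.8 and 212 in control, 133 and 157 under cisplatin, 274 and 373 under doxorubicin, and 382 and 432 under tunicamycin. All 3 isomerases were above control under doxorubicin and highest under tunicamycin in both genotypes. Cisplatin lay below control for all 3 in KO cells, and in WT cells for PDIA4 and PDIA6 but not for PDIA3. P4HB, the founding disulfide isomerase, was 478 and 517 in control, 460.4 and 489 under cisplatin, 705 and 1049 under doxorubicin, and 757 and 1060.5 under tunicamycin. ERO1B, an oxidase that recharges the isomerases, was 2.39 and 2.04 FPKM in control and 10.3 and 12.04 under tunicamycin. The largest tunicamycin over control log2 value of this role was that of PDIA4 in WT (2.51, with 1.97 in KO) and that of ERO1B in KO (2.10, with 1.74 in WT), and P4HB had the smallest in WT, 0.66.

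In ER-associated degradation, which carries misfolded proteins to the cytosol, 5 of 10 tested members were at least 1.5-fold higher in tunicamycin in WT (HERPUD1, SEL1L, SYVN1, EDEM1 and EDEM2) and 10 of 10 in KO, with no test of that difference. Some values lay near the threshold, such as DERL2 at 1.49-fold in WT, and OS9 at 1.40-fold in WT and 1.55-fold in KO. Set against the median gene, the counts were 6 in WT and 10 in KO. HERPUD1, a scaffold of the degradation complex, was 25.6 and 26.8 FPKM in control, 17.4 and 20.0 under cisplatin, 1.42 and 1.94 under doxorubicin, and 385 and 579.6 under tunicamycin. SEL1L, the adaptor of the ubiquitin ligase, was 11.6 and 20.7 in control, 11.8 and 8.72 under cisplatin, 11.7 and 8.01 under doxorubicin, and 103 and 178 under tunicamycin. SYVN1 (HRD1), the ligase itself, was 11.0 and 13.6 in control, 18.3 and 18.2 under cisplatin, 3.99 and 2.11 under doxorubicin, and 84.7 and 77.4 under tunicamycin. These 3 partners had tunicamycin over control log2 values of 3.86, 3.04 and 2.84 in WT and 4.38, 3.05 and 2.43 in KO, and HERPUD1 ranked 13th and 3rd of 12749 genes. The exons of SYVN1 overlap those of FAU on the same strand and MRPL49 on the other, so reads of those genes may be counted in SYVN1.

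The EDEM proteins trim mannose from glycoproteins bound for degradation. EDEM1 was 7.25 and 6.56 FPKM in control, 7.19 and 5.38 under cisplatin, 11.7 and 7.74 under doxorubicin, and 25.0 and 25.7 under tunicamycin. EDEM2 was 9.88 and 14.5 in control, 10.2 and 12.9 under cisplatin, 8.86 and 17.6 under doxorubicin, and 20.8 and 35.1 under tunicamycin. EDEM3, whose promoter is shown without a match, was 8.51 and 7.99 in control, 6.33 and 6.95 under cisplatin, 1.24 and 0.916 under doxorubicin, and 9.71 and 13.1 under tunicamycin. EDEM1 and EDEM2 were thus 2-fold or more higher in tunicamycin in both genotypes, and EDEM3 was 1.13-fold higher in WT and 1.57-fold in KO on the (FPKM + 1) scale.

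The derlins form part of the channel. DERL2 was 82.2 FPKM in WT and 58.7 in KO control cells, 60.6 and 79.6 under cisplatin, 29.8 and 32.3 under doxorubicin, and 123 and 154 under tunicamycin. DERL1 was 40.4 and 33.5 in control and 53.0 and 55.8 under tunicamycin. DERL3 was at or below 0.466 FPKM in the 6 groups without tunicamycin and was tested only in the tunicamycin table, at 3.97 in WT and 1.88 in KO. SELENOK, a selenoprotein that binds derlins, was 62.1 and 28.9 in control, 49.6 and 48.4 under cisplatin, 62.2 and 58.0 under doxorubicin, and 79.8 and 90.04 under tunicamycin, so that its KO control value lies below the other 7. OS9, a lectin that selects glycoproteins for degradation, was 62.9 and 78.8 in control, 60.1 and 58.2 under cisplatin, 113 and 149.6 under doxorubicin, and 88.8 and 123 under tunicamycin. OS9 was highest under doxorubicin in both genotypes.

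Among the remaining members, the secreted ER proteins MANF and CRELD2 and the COPII coat subunit SEC24D were at least 1.5-fold higher in tunicamycin in both genotypes, and the translocon subunit SEC61B was not in either. MANF was 206 FPKM in WT and 195 in KO control cells, 138 and 160.0 under cisplatin, 97.8 and 149 under doxorubicin, and 804 and 927 under tunicamycin. CRELD2 was 17.1 and 23.3 in control, 25.3 and 29.1 under cisplatin, 25.9 and 43.5 under doxorubicin, and 79.0 and 114 under tunicamycin. SEC61B was 172 and 137 in control, 124 and 117 under cisplatin, 225 and 272 under doxorubicin, and 167 and 189 under tunicamycin. Its tunicamycin over control log2 value was -0.04 in WT and 0.46 in KO. SEC24D was 15.2 and 19.0 in control, 4.93 and 3.84 under doxorubicin, and 61.7 and 71.6 under tunicamycin.

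The tunicamycin values were set beside the promoter elements printed above. The 3 members with an ERSE-II (HERPUD1, SDF2L1 and HYOU1) had log2 values of 2.84 to 3.86 in WT and 2.73 to 4.38 in KO. The 8 with an ERSE had a median of 1.29 in both genotypes, with HSPA5 at 4.24 in WT as the highest and HSP90B1 at 0.84 as the lowest. The 21 tested members whose windows held neither had a median of 0.82 in WT and 1.35 in KO, with DNAJB9 highest. SEL1L, with neither element, had 3.04 and 3.05. The ranges of the ERSE class and of the class with neither thus overlap over most of their length, and no test was made of the difference between classes.

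**Figure D3:**
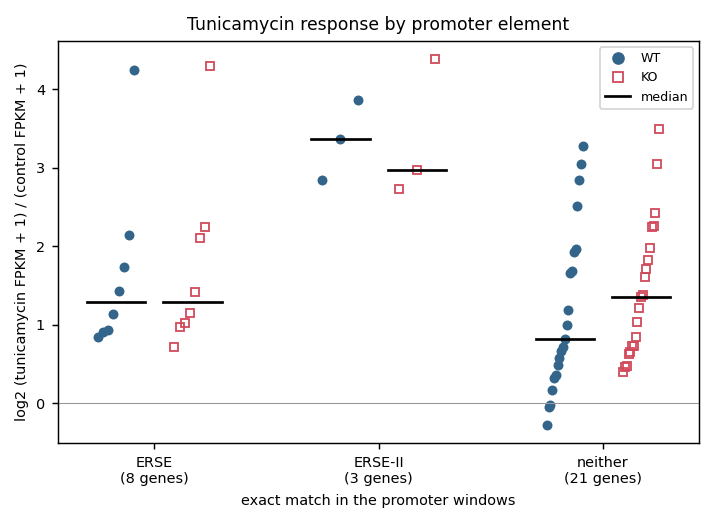
Tunicamycin over control log2(FPKM + 1) value of the members by the exact element found in their promoter windows, with WT as filled circles, KO as open squares and medians as bars. The 3 ERSE-II members all lie above 2.7, and the other classes span from below 1 to above 3.

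Under cisplatin the members leaned lower than control. Of 35 tested, 6 were at least 1.5-fold lower in WT cells and 11 in KO cells, against 11.1% and 13.8% of 12657 genes. At least 1.5-fold higher were 2 in WT (ERN1 and SYVN1) and 2 in KO (ERN1 and SELENOK), against 18.1% and 17% of genes. The median log2 value was -0.43 in WT and -0.41 in KO, against 0.09 and 0.11 over all tested genes. SIL1 was the lowest, with a log2 value of -2.30 in WT, the 35th lowest of 12657 genes, and -1.87 in KO. HSPA5 followed at -1.15 and -1.61, and ATF6 at -0.99 and -1.39. The HSP70 and HSP90 system accounted for 4 of the 6 in WT (HSPA5, HSP90B1, SIL1 and DNAJC3) and for 5 of the 11 in KO, where HYOU1 joined them.

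Under doxorubicin members lay on both sides of control. The median of all 11057 tested genes was -0.52 in WT and -0.53 in KO, so values are given with that shift in view. Of 34 tested members 6 in WT and 11 in KO were at least 1.5-fold higher than control, against 11% and 13.1% of genes, and 13 in each were at least 1.5-fold lower, against 48% and 48.5%. Set against the median gene, 15 in WT and 19 in KO were at least 1.5-fold higher, against 28.2% and 30.9% of genes, and 9 in each were lower, against 32.9% and 34.1%. The mitochondrial share of summed FPKM was 16.99% in WT and 11.1% in KO under doxorubicin, against 3.64% to 6.94% in the other groups, and its part in these values was not tested.

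Of the lectin chaperones, isomerases and oxidase, 6 of 7 in WT and 7 of 7 in KO were above control under doxorubicin, where 3400 and 3652 of all 11057 genes were. The median log2 value of that role was 0.50 in WT and 0.71 in KO, and 2 of its members in WT and 4 in KO were at least 1.5-fold higher. CANX had the highest value in WT, 1.17, and ATF6B the highest in KO, 1.07. PDIA3 (0.86 and 1.004), OS9 (0.83 and 0.92) and HYOU1 (0.85 and 0.75) were also at least 1.5-fold higher in both genotypes. In KO cells SEC61B (0.99), SELENOK (0.98), HSP90B1 (0.88) and CRELD2 (0.87) were among them as well. All 6 members at least 1.5-fold higher in WT have exons that overlap another annotated gene. Among the 16 tested members without such overlap, 0 in WT and 2 in KO (SEC61B and SELENOK) were at least 1.5-fold higher, and 9 and 10 were at least 1.5-fold lower.

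The lowest values under doxorubicin were those of XBP1 and HERPUD1. XBP1 was 12.05-fold lower in WT and 14.5-fold lower in KO on the (FPKM + 1) scale, the 181st and 126th lowest of 11057 genes. HERPUD1 was 11.0-fold and 9.45-fold lower, EDEM3 4.25-fold and 4.69-fold, SYVN1 2.40-fold and 4.69-fold, and SEC24D 2.73-fold and 4.13-fold. EIF2AK3, at 0.206 and 0.424 FPKM, was too low to be tested. The degradation role as a whole was not low, with a median log2 value of -0.07 in WT and -0.35 in KO, both above the median gene. Of the 6 members with the largest mean tunicamycin response, HSPA5, HERPUD1, DNAJB9 and SDF2L1 were below both control and the median gene under doxorubicin in both genotypes. HYOU1 was above control in both, and SEL1L had log2 values of 0.01 in WT and -1.27 in KO.

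**Figure D4:**
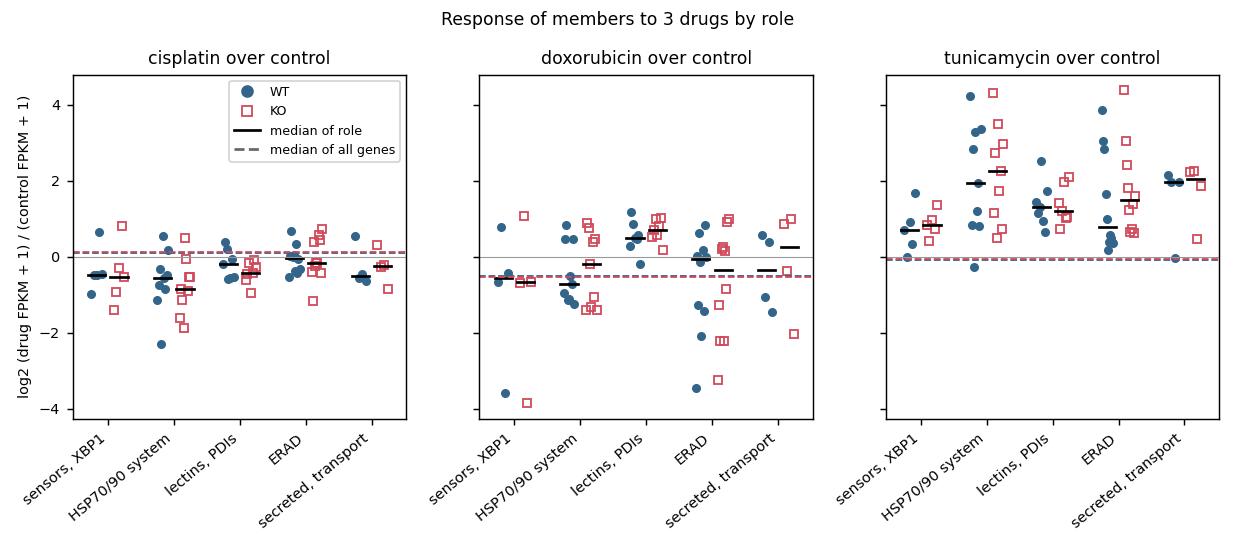
Log2 of (drug FPKM + 1) over (control FPKM + 1) for the tested members under each drug, by role, with WT as filled circles, KO as open squares, role medians as bars and the medians of all tested genes as dashed lines. Under doxorubicin the lectins and isomerases lie above 0 in KO cells while XBP1 and HERPUD1 lie below -3, and under tunicamycin nearly all members lie above 0.

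KO and WT cells were compared within each table by the authors' Cuffdiff test. In control cells 17 of 35 tested members were called higher in KO and 6 lower, against 22.7% and 21.1% of all genes. Under cisplatin 13 of 35 were called higher and 7 lower, against 25.4% and 24.2%. Under doxorubicin 19 of 34 were called higher and 5 lower, against 24.4% and 20.7%. Under tunicamycin 27 of 36 were called higher and 3 lower (HSP90B1, SYVN1 and DERL3), against 27.2% and 22.1%. The median log2 ratio of KO over WT was 0.20, 0.09, 0.36 and 0.27 in these tables, against 0.01, 0.02, 0.04 and 0.03 over all tested genes. Among the 16 tested members without exon overlap, 8, 6, 6 and 14 were called higher and 2, 3, 2 and 0 lower in the same order.

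The members are more abundant than most genes, with a median of 86.8 FPKM in WT tunicamycin cells against 8.98 over all tested genes, and abundant genes were called more often. Among genes of 50 FPKM or more in at least 1 group of the table, 38.5% were called higher in KO in control, 46.1% under cisplatin, 59.8% under doxorubicin and 57.1% under tunicamycin. Members at that level were called higher in 11 of 18, 9 of 17, 14 of 16 and 23 of 27 cases. Called lower were 35.5%, 33.7%, 25% and 24.5% of genes at that level, and 6, 4, 1 and 2 members. Small ratios passed at such levels, as for HSP90B1 under tunicamycin, with a log2 ratio of -0.05 and q = 0.000492 in the authors' deposited table.

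Among 34 members with a test under every treatment, the KO value was called higher each time for 10 (DNAJC3, DNAJC10, SDF2L1, CALR, PDIA3, PDIA4, PDIA6, P4HB, EDEM2 and CRELD2), against 9% of 10881 genes, and lower each time for 0. That share is over genes of every level, and none was counted for genes as abundant as most of these members. In the authors' deposited tables DNAJC3 had log2 ratios of 0.94 in control, 0.93 under cisplatin, 0.60 under doxorubicin and 1.24 under tunicamycin. PDIA4 had 0.97, 0.59, 1.03 and 0.42 there, and SDF2L1 1.10, 0.38, 0.97 and 0.69. For these 3 genes q was the smallest the tables give, 0.000213 in control, 0.000167 under cisplatin, 0.000186 under doxorubicin and 0.000173 under tunicamycin. DNAJC3 lies in a 10 Mb stretch of chromosome 13 whose genes were higher in KO as a whole, with medians of 0.81, 0.96, 0.80 and 1.02 in the same tables. Its ratios thus lie near those of its neighbours, and a difference of the KO culture over that stretch cannot be told apart from an effect on the gene.

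The lectin and isomerase role was called most evenly, with 6 of 7 members higher in KO in control, 5 under cisplatin, 6 under doxorubicin and 7 under tunicamycin. Under cisplatin 1 member, CANX, was called lower. Apart from ERO1B these genes are abundant. Among all genes of 50 FPKM or more, 38.5%, 46.1%, 59.8% and 57.1% were called higher in these tables. CALR had log2 ratios of 0.46, 0.05, 0.69 and 0.45 in the authors' deposited tables, and PDIA3 0.65, 0.28, 0.79 and 0.55. P4HB had 0.11, 0.09, 0.57 and 0.49 there, so that its difference was larger under doxorubicin and tunicamycin, and PDIA6 had 0.09, 0.24, 0.45 and 0.18. The exons of CALR, CANX, PDIA3, PDIA6 and P4HB overlap those of other annotated genes, so reads of those genes may be counted in them.

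Few of the sensors were called, and their levels, at most 20.5 FPKM, lay far below those of CALR, PDIA3 or P4HB. No share of calls was counted for genes at such low levels, and the part of level in this difference between roles was not tested. The sensors ERN1 and EIF2AK3 and the J protein DNAJB9 were called in no table, which does not show that their levels were equal. ATF6 was called only under cisplatin, lower in KO with a log2 ratio of -0.60 and q = 0.000167 in the authors' deposited table. XBP1 was called higher in KO in control (0.21), under cisplatin (0.38) and under tunicamycin (0.27) in the authors' deposited tables, and not under doxorubicin (-0.07; q = 0.790). ATF6B was called higher under doxorubicin (0.63) and tunicamycin (0.80) in those deposited by the authors.

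**Figure D5:**
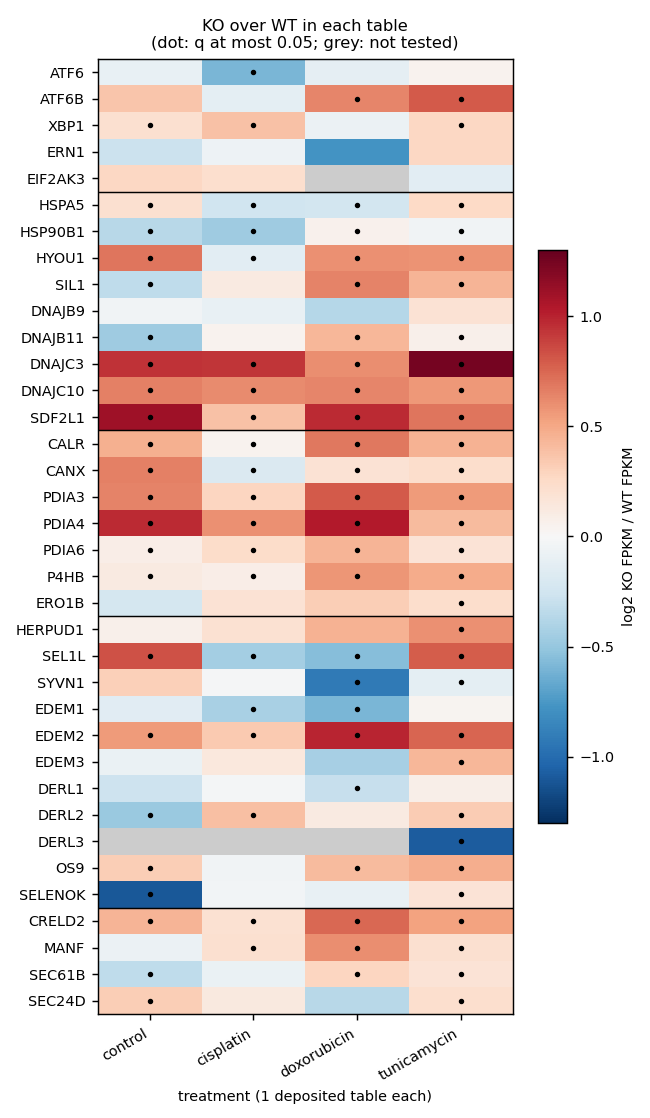
Log2 ratio of KO over WT FPKM in each of the authors' 4 deposited tables for the 36 members, ordered by role with lines between roles. Dots mark q at most 0.05 and grey cells were not tested, and the tunicamycin column holds 27 called higher and 3 called lower.

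Called both ways, higher in KO in one table and lower in another, were 10 members, against 12.9% of genes. This share too is over genes of every level, and abundant genes were called more often. HSPA5 was higher in KO in control (log2 ratio 0.20) and under tunicamycin (0.26) and lower under cisplatin (-0.26) and doxorubicin (-0.24) in the authors' deposited tables. HSP90B1 had -0.36, -0.46, 0.05 and -0.05 in the order control, cisplatin, doxorubicin and tunicamycin in the authors' deposited tables. Both genes, and SEC61B with -0.33, -0.08, 0.28 and 0.18, lie in 10 Mb stretches whose genes were lower in KO as a whole. The medians were -0.44, -0.41, -0.45 and -0.45 around HSPA5 on chromosome 9, -0.54, -0.42, -0.53 and -0.45 around HSP90B1 on chromosome 12, and -0.43, -0.52, -0.41 and -0.34 around SEC61B on chromosome 9. HSPA5 and SEC61B were thus above their neighbours' medians in every table, and HSP90B1 in all but the cisplatin table, by amounts that were not tested.

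SEL1L had log2 ratios of 0.83 in control and 0.79 under tunicamycin, and of -0.44 under cisplatin and -0.55 under doxorubicin, with q = 0.00765 and 0.0474 for the last pair, in the authors' deposited tables. SELENOK went from -1.10 in control to 0.17 under tunicamycin in the authors' deposited tables, and DERL2 from -0.48 in control to 0.39 under cisplatin and 0.33 under tunicamycin. HYOU1 had 0.70, -0.13, 0.59 and 0.58 there, and CANX 0.65, -0.19, 0.19 and 0.23, both lower in KO only under cisplatin by the authors' deposited test. SIL1 had -0.33, 0.12, 0.65 and 0.44, and DNAJB11 -0.46, 0.05, 0.43 and 0.07, in the authors' deposited tables, both called lower in control and higher under doxorubicin and tunicamycin.

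The KO over WT ratio under each drug was set beside that in control, on the log2 scale with no test. Under tunicamycin the ratio was above that of control in 24 of 35 members, against 50.7% of genes, with a median difference of 0.18. It was above control in 13 of 35 under cisplatin, against 48.6% of genes, and in 18 of 34 under doxorubicin, against 50.4%. Differences of at least 1.5-fold under tunicamycin were found upward in 3 members, against 10.1% of genes, and downward in 0, against 10.9%. The 3 were SELENOK (1.28), DERL2 (0.81) and SIL1 (0.77), each lower in KO in control, and ERN1 was next with 0.55. PDIA4 (-0.55), SYVN1 (-0.44), CANX (-0.42) and SDF2L1 (-0.41) had the smallest values. For PDIA4, CANX and SDF2L1 the KO was still higher under tunicamycin, by less than in control. The difference for HSPA5 was 0.06, and its ratio to control was 18.9 in WT and 19.6 in KO, as given above.

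Other genes of the response were read from lists that name its neighbouring branches. Of the PERK and ATF4 arm, 14 of 14 tested genes were at least 1.5-fold higher in tunicamycin in each genotype, led by CHAC1, a glutathione-degrading enzyme (log2 value 3.59 in WT and 3.93 in KO), DDIT3, the CHOP factor (3.83 and 3.34), and TRIB3, a pseudokinase that binds ATF4 (3.61 and 3.49). DDIT3 went from 12.1 FPKM in WT and 14.5 in KO control cells to 186 and 157. Other folding and redox genes of the ER were at least 1.5-fold higher in 7 of 18 in WT and 6 of 18 in KO, led by the prolyl isomerase FKBP14 (1.58 and 1.91). Of other degradation genes 5 and 4 of 17 were, led by SELENOS, a partner of the p97 ATPase (0.88 and 1.62). Of the translocon, signal peptidase and oligosaccharyltransferase list, 7 and 12 of 22 were, led by SERP1, a translocon-associated protein (1.52 and 1.58). Of ER to Golgi transport 5 and 8 of 21 were, led by the COPII subunit SEC23B (0.95 and 0.94). Of 13 activators and processing factors of the pathway, which include the proteases that cut ATF6 and the subunits of NF-Y, 0 were in either genotype.

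The same lists were counted for KO against WT under tunicamycin by the authors' deposited test, where 27.2% of genes were called higher in KO and 22.1% lower. Called higher were 8 of 15 genes of the PERK and ATF4 arm, 12 of 18 of folding and redox, 7 of 17 of degradation, 17 of 22 of translocon and glycosylation, 9 of 21 of transport and 3 of 13 activators. Called lower were 3, 3, 3, 1, 4 and 6 in the same order. Those shares are over genes of every level, and many genes of these lists are abundant. Among genes of 50 FPKM or more in at least 1 group, 57.1% were called higher and 24.5% lower. The lists were not split by level, so the part of level in their counts was not tested. In control cells 22.7% of all genes were called higher in KO and 21.1% lower, and 38.5% and 35.5% of genes of 50 FPKM or more. Called higher there were 4 of 14, 7 of 18, 3 of 17, 11 of 22, 8 of 21 and 2 of 13 in the same order of lists. Called lower were 5, 6, 6, 7, 6 and 4.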

How the data were processed

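Per the labels, RNA from 16 samples (8 groups of 2) was sequenced paired-end. The submitters' processing notes name FastQC 0.11.5, Trimmomatic 0.35, STAR 2.5.3 and build hg38, and Cufflinks and Cuffdiff with no version. Whether counting used strand is not stated in the sources. The authors deposited 4 Cuffdiff tables, 1 per treatment, with 1 FPKM per group, the log2 ratio of KO over WT, a test score, and a p-value and q-value per gene. The deposited p-values do not go below 5e-05, so the smallest q is shared by many genes. Counts and values per library are not given, so depth, standard deviations and intervals could not be computed, and the deposited p-values measure the spread that Cuffdiff estimated between samples that may differ only technically.

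Calls are q at most 0.05 over all tested genes of a table. Responses are log2((FPKM + 1) of drug over control), over genes tested in both tables, with a 1.5-fold threshold. Gene positions and exon overlaps came from GENCODE 29 on the same build, and exact motif matches were counted in RefSeq windows (GRCh38.p14). Scripts used Python 3.11.15, pandas 2.3.3 and numpy 2.4.6 and were tested on simulated data. The members and lists were chosen with earlier results of these data known. Levels in all groups are named for the 2 most abundant members of a role, the 6 largest and 3 smallest tunicamycin responses, members called alike in all 4 tables or both ways, the 4 largest and 4 smallest differences of KO over WT between tunicamycin and control, and the sensors. Values of ERO1B, EDEM1, EDEM3, DERL1, DERL3 and SEC24D fall outside that rule and were chosen after their values were seen. The background for genes of 50 FPKM or more was added after seeing the data. From each other list at most 3 genes are named, those with the largest response. Alternatives were a 2-fold threshold, centring on the median gene, another pseudocount, a level filter of 5 FPKM, a stricter q, and removal of members with exon overlap or in shifted stretches.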

Additional observations from a re-analysis of the deposited data

Results flagged for a closer look

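For 10 members the authors' deposited test called KO higher than WT under one treatment and lower under another. In each case the difference between the treatments was itself not tested, since the tables hold 1 value per group. The log2 ratio of KO over WT of SEL1L was 1.38 higher in control than under doxorubicin. That of SELENOK was 1.28 higher under tunicamycin than in control. That of SIL1 was 0.98, that of DNAJB11 0.89 and that of SEC61B 0.61 higher under doxorubicin than in control. DERL2 had a ratio 0.88 higher under cisplatin than in control. CANX (0.84) and HYOU1 (0.83) had ratios that much higher in control than under cisplatin. HSPA5 had a ratio 0.52 higher under tunicamycin than under cisplatin, and HSP90B1 one 0.52 higher under doxorubicin than under cisplatin. Calls both ways were made for 12.9% of all genes tested in the 4 tables, a share not counted for genes of like level.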

How the results depend on the processing

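No paired analysis was possible because the tables hold no value per library, and leaving out replicates could not be done for the same reason. A choice between repeated symbols was not run, since no member's symbol repeats. The removal of members in shifted stretches and of those with exon overlap was chosen after seeing the data. Of 117 alternative values of the counts, 83 stayed within 1.5 times or kept their size and 34 moved. With a 1.5-fold threshold added to q, members called higher and lower in KO were 8 and 1 in control, 3 and 1 under cisplatin, 12 and 2 under doxorubicin, and 6 and 1 under tunicamycin. The share of all genes that passed both limits was not counted, so these numbers have no background. Without the 20 members with exon overlap, which left 16 tested, the counts by q alone were 8 and 2, 6 and 3, 6 and 2, and 14 and 0. The cause was not tested. For responses in WT cells, a 2-fold threshold gave 0 higher and 2 lower under cisplatin and 1 higher under doxorubicin. Centring on the median gene gave 1 higher and 12 lower under cisplatin and 15 higher under doxorubicin. A filter of 5 FPKM left 1 higher under cisplatin. Without exon overlap, 1 was higher under cisplatin, 0 under doxorubicin and 12 under tunicamycin. In KO cells, a 2-fold threshold gave 0 higher and 5 lower under cisplatin and 3 higher under doxorubicin. Centring gave 19 higher under doxorubicin, and a filter of 5 FPKM left 1 higher under cisplatin. Without exon overlap, 6 were lower under cisplatin, 2 higher under doxorubicin and 15 under tunicamycin. Of 556 alternative values for single members, 134 moved. A reversal of sign was counted only for values that were called or at least 1.5-fold, and 0 were found. Smaller values that changed sign were not counted as reversed.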

Other observations

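Promoter windows of genes outside the 36 members were searched for the same elements. Of those tested in control and tunicamycin, 18 held an exact ERSE or ERSE-II. In tunicamycin 6 of them (33.3%) were at least 1.5-fold higher than control in WT cells and 8 (44.4%) in KO cells. Among 8981 genes with neither element the shares were 7.23% and 6.11%. The genes were picked by their promoter letters after the members' values had been seen, the ratios cross separately normalized tables, and no test was made. The median log2 value of the 18 was 0.25 in WT and 0.50 in KO, against -0.08 and -0.07 for the 8981. Lowest were PLS3, at -1.45 in WT and 0.02 in KO, and CAMTA1, at -0.999 and -0.27. The 6 genes named next had the largest mean values. FICD, an enzyme that modifies BiP with AMP, was 2.75 FPKM in WT and 1.99 in KO control cells and 24.4 and 14.0 under tunicamycin. SERP1 was 79.6 and 128 in control and 231 and 385 under tunicamycin. The restriction factor TRIM5 was 2.97 and 3.86 in control and 9.07 and 10.8 under tunicamycin. RAD9A, part of a checkpoint clamp on damaged DNA, was 6.90 and 5.03 in control and 12.7 and 17.9 under tunicamycin. NUCB1, a calcium-binding protein of the Golgi, was 87.6 and 107 in control and 163 and 183 under tunicamycin. ALG12, a mannosyltransferase of N-glycan synthesis, was 11.2 and 17.2 in control and 22.0 and 28.4 under tunicamycin, and its exons overlap those of CRELD2 on the other strand.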
